A study of Bos taurus with 9 samples.

Results

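The subunits of the transcription factor NF-κB and the proteins that restrain it were followed through the response of bovine endometrial cells to ovarian hormones and interferon tau (IFNT). The members were 5 subunit genes (NFKB1, NFKB2, RELA, RELB and REL) and 5 inhibitor genes (NFKBIA, NFKBIB, NFKBIE, NFKBIZ and TNFAIP3), and all 10 were among the 17162 genes of the table. They were picked by symbol and not by a cut on their values, though with earlier results of these data known. Wild-type primary bovine endometrial cells (BEND), labelled as epithelial, were sequenced in 9 libraries of 3 groups of 3. CON cells were untreated, GA cells were given 1 nM estradiol (E2) and 100 nM progesterone (P4) for 12 h, and GB cells were given the same hormones followed by 100 ng/mL IFNT for a further 12 h. Whether the 3 groups were harvested at the same time, and whether replicates came from separate animals, is not stated in the sources read, so the p-values measure only the spread between these libraries.

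NF-κB is a dimer of subunits that share a Rel homology domain, and in resting cells most of it is held in the cytoplasm by IκB proteins. Inflammatory receptors activate the IKK kinase complex, which marks IκB for destruction, and the freed dimers enter the nucleus and switch on cytokine, adhesion and survival genes, among them the genes of their own inhibitors. In the uterus the pathway is best known for the response to bacterial infection, and IFNT is the type I interferon by which the ruminant conceptus signals pregnancy to the mother.

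The libraries were first checked against their labels. Values are FPKM, which corrects the reads of a gene for its exon length and for the size of the library, and they summed to between 1395620 and 1442720 per library. The 7 interferon-stimulated genes used as a check summed to 9492 FPKM or more in every GB library and to 147 or less in every CON and GA library. Of 8 epithelial markers, 7 were in the table, and none averaged as much as 1 FPKM. Their sum ranged over 0.43 to 1.53 FPKM (CON), 0.88 to 1.61 (GA) and 0.96 to 1.90 (GB), and the defining keratins KRT8 and KRT18 averaged 0.142 and 0.361. All 9 stromal fibroblast markers averaged at least 10 FPKM, so the epithelial label is not borne out by these transcripts. The study checked the culture by cytokeratin 18 staining, an image that was not analysed here, and the cells are called BEND only as a name. The fibroblast markers summed to 16786 to 17378 FPKM (CON), 16978 to 17372 (GA) and 15233 to 15347 (GB). In GB vs. GA 5 of 9 were lower (VIM, COL1A2, COL3A1, DCN and LUM, log2FC −0.32 to −0.15) and 1 higher (PDGFRA), at an adjusted p under 0.05. COL1A1, PDGFRB and THY1 did not pass. Of all genes tested, 19.2% were lower and 9.87% higher. The part of the shift in these markers in the differences below was not tested. In bulk RNA a change in the number of cells of a type and a change in RNA per cell cannot be told apart. For single genes the exact permutation test cannot reach below p = 0.1 with 3 libraries a group, so differences are given from limma fitted across 12578 genes with a mean of at least 0.5 FPKM, on the log2(FPKM + 0.5) scale (log2FC), with the Benjamini-Hochberg adjusted p.

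BEND carried transcripts of 9 members, in the same order of level in all 3 groups. The mean FPKM over the 9 libraries fell from 76.4 for RELA to 58.8 for NFKB2, 30.8 for NFKBIB, 22.0 for NFKB1, 17.7 for NFKBIE, 11.8 for RELB, 9.16 for NFKBIA, 4.26 for NFKBIZ and 3.19 for TNFAIP3. The libraries of neighbours in this order overlapped for NFKB1 and NFKBIE in GA, and for RELB and NFKBIA in GA and GB, and for no other neighbours. REL, which encodes c-Rel, a subunit best known in lymphoid cells, was listed at 0 in 6 of 9 libraries and reached at most 0.12 FPKM, in CON3. REL was therefore left out of the tests, which covered the other 9 members.

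**Figure D1:**
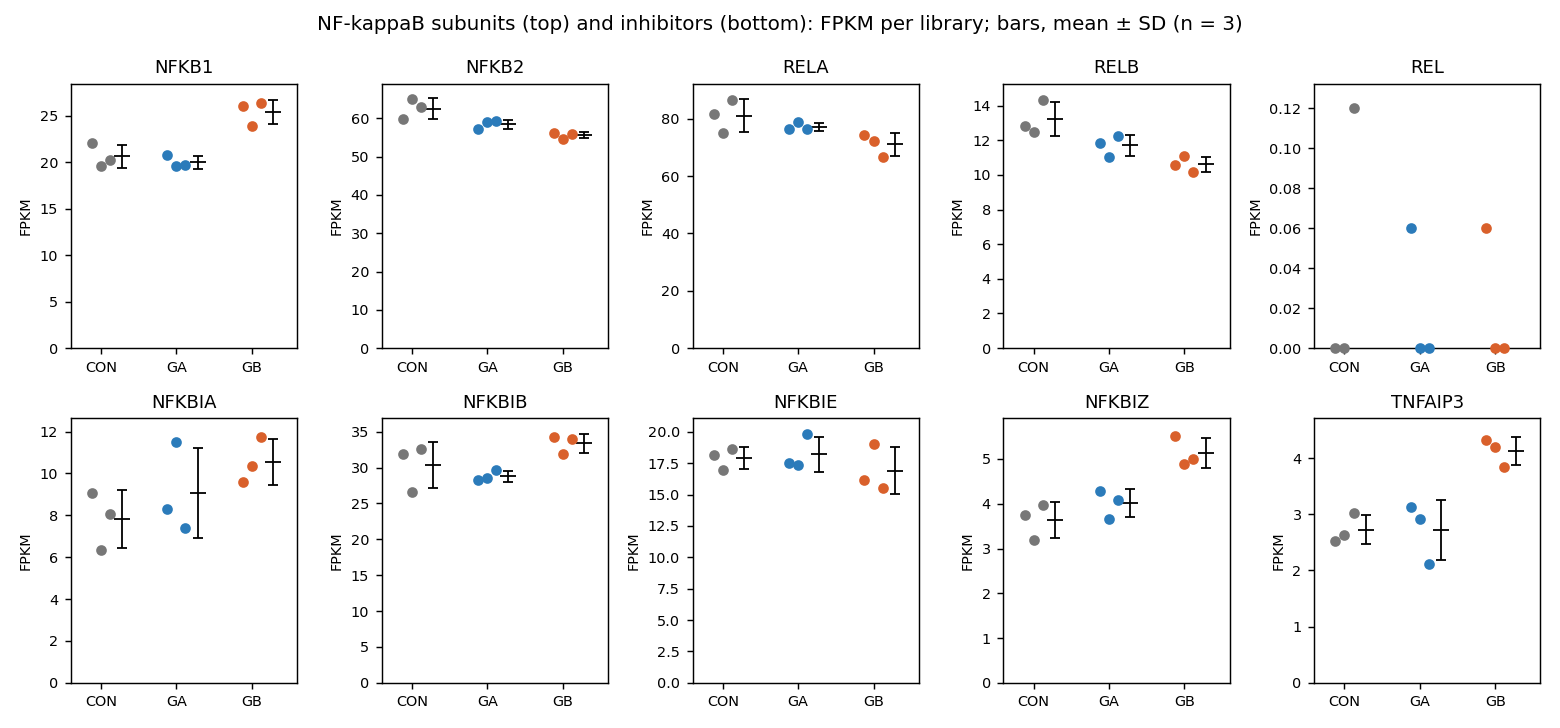
FPKM of each member in each of the 9 libraries, 1 panel per gene with its own vertical axis starting at 0. Points are libraries of CON, GA and GB, and bars give the mean and SD of a group except for REL, which was at or near 0. NFKB1, NFKBIZ and TNFAIP3 were higher in all 3 GB libraries than in any other library, and NFKB2 and RELA were lower.

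The addition of IFNT to hormone-treated cells was the question of GB vs. GA. Since the harvest times are not stated, IFNT and a longer time in culture with hormones cannot be told apart in this comparison. NFKB1 and TNFAIP3 rose, by 27.1% and 51.5% in mean FPKM, and none of the 9 tested members was lower at an adjusted p under 0.05. Thus 1 of 4 tested subunits and 1 of 5 inhibitors were higher at an adjusted p under 0.05, and 7 members did not pass, while 4 had an unadjusted p under 0.05, all of them higher (2 without GB1). Across all genes tested, 29.0% passed in either direction, 9.87% higher and 19.2% lower. The share of all genes with an unadjusted p under 0.05 was not counted in any comparison. In GB vs. GA it cannot be below 29.0%, so the count of 4 is not read as a result about the members. The median log2FC of the members was 0.21 (−0.10 for the subunits and 0.23 for the inhibitors), against −0.08 for all genes, and 0.10 without GA3. The GB libraries lay above all GA libraries for 4 members and below them for 2, as they did for 15.7% and 31.0% of all genes. No member was a DEG by the thresholds of the study (adjusted p under 0.05 and |log2FC| above 1), which 3.64% of all genes met. The thresholds were applied here to limma and not to the study's DESeq2 test, so the counts differ from its own. The share of passing genes that were higher was 34.0% with FPKM as deposited and 52.9% after median-of-ratios scaling.

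NFKB1 encodes the p105 precursor that is processed to the p50 subunit. It stood at 22.01, 19.58 and 20.28 FPKM in CON, 20.81, 19.53 and 19.64 in GA, and 26, 23.9 and 26.31 in GB. Every GB library was thus above every CON and GA library, and the CON and GA libraries overlapped. The difference was 0.34 ± 0.066 (log2FC ± SE, 95% interval 0.19 to 0.49, limma adjusted p = 0.00465) in GB vs. GA. It kept this call under all 21 alternative settings of the analysis.

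NFKB2 encodes p100, which yields the p52 subunit of the non-canonical pathway. Its FPKM was 59.71, 65.04 and 62.90 in CON, 57.13, 58.91 and 59.33 in GA, and 56.16, 54.62 and 55.84 in GB. The 3 groups did not overlap, with CON highest and GB lowest. In GB vs. GA its log2FC was −0.07 (95% interval −0.18 to 0.03, limma adjusted p = 0.272).

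RELA encodes p65, the main activating partner of p50. It measured 81.65, 74.97 and 86.50 FPKM in CON, 76.40, 78.69 and 76.26 in GA, and 74.42, 72.05 and 66.76 in GB. All GB libraries lay below all others, while CON and GA overlapped. The log2FC was −0.12 in GB vs. GA (95% interval −0.26 to 0.02, limma adjusted p = 0.190).

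RELB is the partner of p52 in the non-canonical pathway. Its levels were 12.84, 12.50 and 14.34 FPKM in CON, 11.83, 11.06 and 12.24 in GA, and 10.58, 11.07 and 10.18 in GB. The GB and GA libraries overlapped by 0.01 FPKM, and every CON library was above both. The log2FC was −0.14 in GB vs. GA (95% interval −0.31 to 0.04, limma adjusted p = 0.217).

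Among the inhibitors, TNFAIP3 encodes A20, an enzyme that edits ubiquitin chains and dampens signalling upstream of IKK. It was at 2.52, 2.64 and 3.02 FPKM in CON, 3.13, 2.91 and 2.12 in GA, and 4.32, 4.20 and 3.84 in GB. The lowest GB library stood above the highest of the others, and CON and GA overlapped. The log2FC was 0.53 ± 0.14 in GB vs. GA (95% interval 0.21 to 0.86, limma adjusted p = 0.0207). The adjusted p in limma was 0.0581 without GA3 (log2FC 0.39), 0.0672 without GB1 and 0.0595 without GB2.

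NFKBIZ encodes IκBζ, a nuclear protein that binds p50 and can activate a subset of targets. It was listed at 3.76, 3.20 and 3.98 FPKM in CON, 4.28, 3.67 and 4.08 in GA, and 5.51, 4.89 and 5.00 in GB. GB again lay apart from the other groups. Its log2FC was 0.32 ± 0.11 in GB vs. GA (95% interval 0.07 to 0.57, limma adjusted p = 0.0548). The adjusted p in limma was 0.0375 without CON2, and 0.0432, 0.0237 and 0.0231 after rescaling to the same sum, median-of-ratios and quantile scaling.

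The 3 IκB proteins that hold NF-κB in the cytoplasm were less uniform. NFKBIB, which encodes IκBβ, stood at 31.83, 26.64 and 32.56 FPKM in CON, 28.22, 28.51 and 29.60 in GA, and 34.28, 31.86 and 34.00 in GB. The GB libraries were above all GA libraries but overlapped with CON. The log2FC was 0.21 in GB vs. GA (95% interval 0.04 to 0.38, limma adjusted p = 0.0707), and the adjusted p was 0.0125 without CON2 and 0.0450, 0.0134 and 0.0462 under the same 3 scalings.

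NFKBIA encodes IκBα, the inhibitor that is destroyed and remade fastest. It measured 9.09, 6.35 and 8.05 FPKM in CON, 8.31, 11.51 and 7.41 in GA, and 9.59, 10.35 and 11.76 in GB. GB overlapped with GA through GA2 and was above all CON libraries. Its log2FC was 0.23 in GB vs. GA, with the widest interval of the members (−0.16 to 0.62, limma adjusted p = 0.363).

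NFKBIE, which encodes IκBε, was at 18.15, 16.94 and 18.64 FPKM in CON, 17.50, 17.32 and 19.82 in GA, and 16.12, 19.02 and 15.53 in GB. All 3 groups overlapped, and the log2FC was −0.11 in GB vs. GA (95% interval −0.31 to 0.09, limma adjusted p = 0.405).

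**Figure D2:**
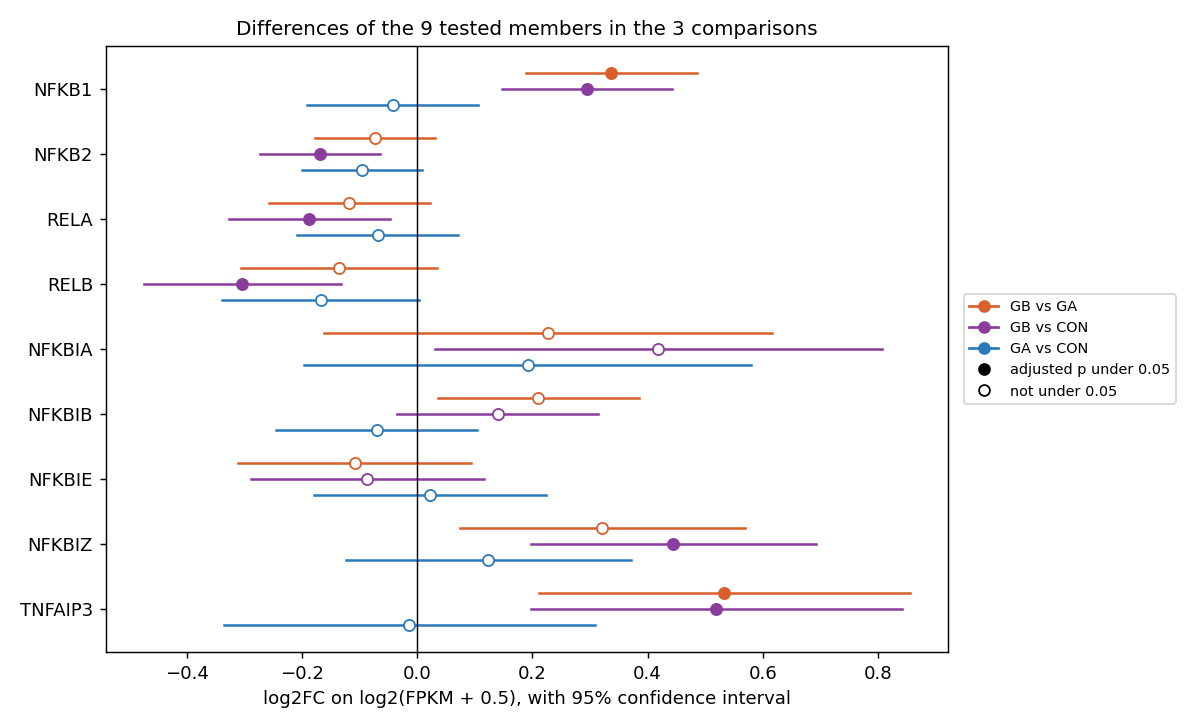
Differences of the 9 tested members in the 3 comparisons, as log2FC on log2(FPKM + 0.5) with 95% confidence intervals from limma. Filled points have an adjusted p under 0.05. In GB vs. GA 2 members were higher and 0 lower, in GB vs. CON 3 were higher and 3 lower, and in GA vs. CON no point was filled.

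GB vs. CON set cells given hormones and IFNT against untreated cells, and it shares the GB libraries with GB vs. GA. NFKB1, NFKBIZ and TNFAIP3 rose and NFKB2, RELA and RELB fell, so that 1 subunit was higher and the other 3 tested subunits were lower. In all, 3 members were higher and 3 lower, where 33.5% of all genes passed, 16.2% higher and 17.3% lower. The GB libraries were above all CON libraries for 4 members and below them for 3, against 22.2% and 23.9% of all genes. The median log2FC of the members was 0.14, against −0.02 for all genes. It was 0.05 without CON2, and it turned to −0.10 with the GC content of the reads as a covariate (−0.09 for all genes) and to −0.07 with GC content and a replicate block (−0.06 for all genes). No member was a DEG, a threshold that 4.01% of all genes passed.

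The members that rose did so by 0.29 (NFKB1, limma adjusted p = 0.00783), 0.45 (NFKBIZ, 0.0129) and 0.52 (TNFAIP3, 0.0208) on the log2 scale. TNFAIP3 was at an adjusted p of 0.0624 without CON1, 0.0534 without CON2, 0.0637 without GB1 and 0.0597 without GB2. RELB fell by 0.30 on the log2 scale (95% interval −0.47 to −0.13, limma adjusted p = 0.0136), which was 19.8% less in mean FPKM than CON. NFKB2 fell by 0.17 (limma adjusted p = 0.0199), and its adjusted p was 0.0512 without CON3 and 0.0677 without GB2. RELA fell by 0.19 (limma adjusted p = 0.0441). This call was lost without any of CON1, CON3, GA1, GA2, GA3, GB2 or GB3, with adjusted p-values from 0.0607 without GA3 to 0.142 without GB3.

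The remaining inhibitors did not pass in GB vs. CON. NFKBIA had a log2FC of 0.42 (limma adjusted p = 0.0916, and 0.0477 without GA2), NFKBIB 0.14 (0.195) and NFKBIE −0.09 (0.493). The GC content of the reads, as given in the study's sequencing statistics, was higher in every CON library than in every GA and GB library, so GC content and treatment cannot be told apart in the comparisons with CON. With GC content as a covariate in limma, 0 members passed in GB vs. CON and 2 had an unadjusted p under 0.05, for which the share of all genes was not counted. The log2FC of the 6 members that had passed kept their directions, at 0.71 for TNFAIP3, 0.28 for NFKBIZ, 0.22 for NFKB1, −0.10 for NFKB2, −0.27 for RELA and −0.43 for RELB.

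E2 and P4 alone were compared in GA vs. CON. No member passed the limma test, where 0.453% of all genes did (0.246% higher and 0.207% lower), and 0 members had an unadjusted p under 0.05. That last count was 3 with median-of-ratios factors, 2 with the same sum or quantile scaling, 2 without CON2, and 1 without CON1 or GA3. No share of all genes was counted beside these unadjusted counts. The log2FC ran from −0.17 for RELB (95% interval −0.34 to 0.003, limma adjusted p = 0.264) to 0.19 for NFKBIA (95% interval −0.20 to 0.58, adjusted p = 0.567). By the thresholds of the study, applied to limma, 0 members and 0.0716% of all genes were DEGs. The study itself reported more DEGs in this comparison, with DESeq2 on read counts. NFKB2 and RELB were lower in every GA library than in every CON library, and no member was higher in that way, against 6.13% and 18.6% of all genes. The interval for NFKB1 was −0.19 to 0.11, and that for TNFAIP3 was −0.34 to 0.31. Since GB is common to the other 2 comparisons, this comparison is also the test of whether they differ, and for no member did it pass.

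The make-up of the subunit pool in GB differed from that of the other groups in the share of NFKB1. NFKB1 made up 11.6 ± 0.770% (SD, n = 3) of the summed subunit FPKM in CON, 12.0 ± 0.494% in GA and 15.6 ± 0.878% in GB. RELA was present at 3.93 ± 0.293, 3.86 ± 0.180 and 2.80 ± 0.244 FPKM per FPKM of NFKB1 in CON, GA and GB. The ratio was 2.86, 3.01 and 2.54 in the GB libraries and at least 3.67 in every other library. NFKB2 per NFKB1 was 3.05 ± 0.308, 2.93 ± 0.158 and 2.19 ± 0.0853 in the same order. These are ratios within a library, which a common scaling factor leaves as they are.

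The summed FPKM of the 5 inhibitors was 62.5 ± 5.81 in CON, 62.8 ± 1.26 in GA and 70.1 ± 0.252 in GB. That of the 5 subunits was 177 ± 6.12, 167 ± 0.991 and 163 ± 4.16. Inhibitor per subunit FPKM was therefore 0.352 ± 0.0245, 0.375 ± 0.00529 and 0.431 ± 0.0121. The GB libraries were at 0.418, 0.435 and 0.441, and the highest of the others at 0.380. NFKBIB gave the larger part of the IκBα, IκBβ and IκBε sum in every group, at 54.1%, 51.3% and 54.9% in CON, GA and GB, and NFKBIA gave 13.9%, 16.2% and 17.4%. The sums and ratios carry no test, since they follow from the members already tested.

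**Figure D3:**
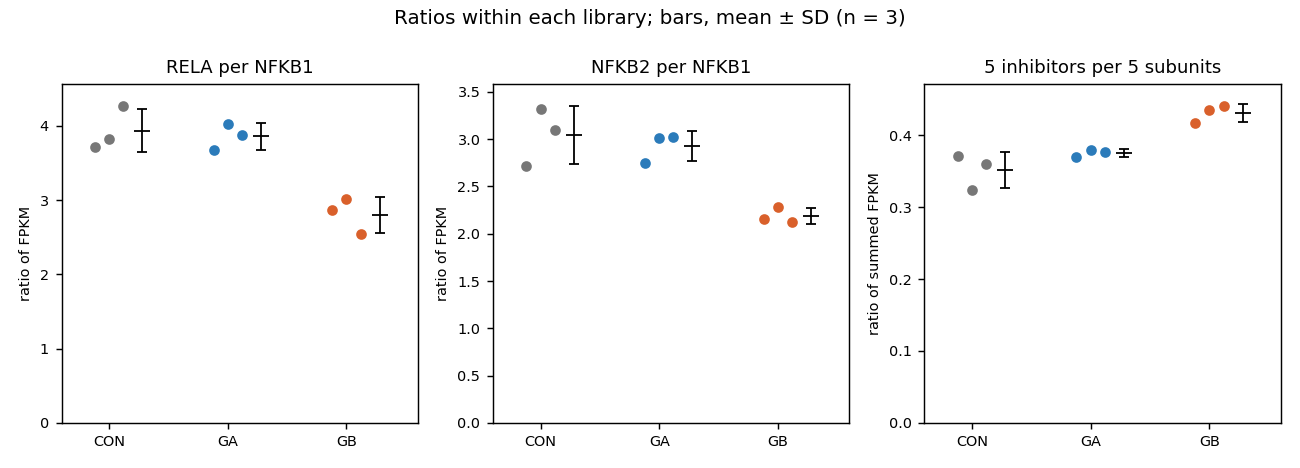
Ratios of FPKM within each of the 9 libraries, with points for libraries and bars for the group mean and SD. RELA per NFKB1 and NFKB2 per NFKB1 were lower in all 3 GB libraries than in any other library, and the inhibitors per subunit were higher.

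The members also differed in how closely replicates of a group resembled each other. NFKB2 had a residual SD of 0.04 on the log2 scale, at the 8.29th percentile of 3487 genes of like level. NFKBIA varied most, with a residual SD of 0.24, at the 85.1st percentile of 3395 such genes, and coefficients of variation of 17.7%, 23.7% and 10.4% in CON, GA and GB. The standard error of a difference in log2FC was accordingly 0.046 for NFKB2 and 0.17 for NFKBIA.

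Over the 9 libraries, and as a description only since the 3 groups shape it, Pearson's r of log2(FPKM + 0.5) was 0.87 between NFKB1 and NFKBIZ, 0.82 between NFKB1 and TNFAIP3, and 0.84 between RELA and RELB. It was −0.85 between NFKB2 and NFKBIZ. Among 9970 genes with a mean of at least 5 FPKM, those most like TNFAIP3 over the 9 libraries were FKBP11 (r = 0.95), METTL1 (0.95) and CCND2 (0.95). Those most like NFKB1 were PGAM5 (0.98), MBOAT1 (0.98) and CKAP4 (0.97), and those most like NFKBIZ were SMOC1 (0.99), NUPL2 (0.98) and MPST (0.97).

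The other IκB-like genes pointed lower in GB vs. GA, and 1 of 3 passed. For this and the lists that follow, the shares over all genes are again 9.87% higher and 19.2% lower. BCL3, a nuclear IκB relative that works with p50 and p52 homodimers, fell. It stood at 38.87, 40.79 and 44.39 FPKM in CON, 32.96, 33.93 and 35.00 in GA, and 25.20, 25.64 and 24.01 in GB. The groups did not overlap, in the order CON, GA, GB. Its log2FC was −0.44 in GB vs. GA (limma adjusted p = 0.000718), −0.72 in GB vs. CON (2.4e-05, and 0.0798 with GC content and the replicate block) and −0.28 in GA vs. CON (0.0833, and 0.0322 and 0.0399 after median-of-ratios and quantile scaling). NFKBID, which encodes the nuclear protein IκBNS, had a log2FC of −0.35 in GB vs. GA (limma adjusted p = 0.0607), and it was at 0.0284 without GB1. NFKBIL1 had a log2FC of −0.27 (adjusted p = 0.234). In the gene order of the assembly ARS-UCD2.0, RELB and BCL3 lie on the same chromosome with 8 protein-coding genes between them. NFKBIB is on that chromosome too, 159 protein-coding genes from RELB.

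Of the IKK complex and its upstream kinases, 2 of 11 rose and 1 fell in GB vs. GA, with a median log2FC of −0.02, and the passing share was thus close to the 29.0% of all genes. CHUK, the IKKα subunit that drives the non-canonical pathway, measured 26.36, 23.18 and 27.67 FPKM in CON, 28.06, 28.08 and 27.13 in GA, and 19.83, 23.30 and 22.25 in GB. GB was below every GA library and overlapped with CON. Its log2FC was −0.34 in GB vs. GA (limma adjusted p = 0.0114) and −0.23 in GB vs. CON (0.0510, and 0.0160 without CON2 and 0.0468 without GB2). IKBKB, the IKKβ subunit, had a log2FC of −0.04 in GB vs. GA (limma adjusted p = 0.731), and IKBKG, the scaffold NEMO, of 0.09 (0.649).

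The rises of the kinase list, named after their values were seen, were TBK1 and TAB2. TBK1 is an IKK-related kinase that activates interferon regulatory factors. It was at 14.41, 13.37 and 13.67 FPKM in CON, 16.17, 15.76 and 16.54 in GA, and 18.74, 19.84 and 21.94 in GB. The groups again did not overlap, here with GB highest. The log2FC was 0.31 in GB vs. GA (limma adjusted p = 0.00969) and 0.53 in GB vs. CON (0.000456). The latter call was lost with GC content as a covariate (log2FC 0.36, limma adjusted p = 0.0980) and with the replicate block too (0.39, 0.304). Its relative IKBKE had a log2FC of 0.10 in GB vs. GA (limma adjusted p = 0.711). TAB2, a ubiquitin-binding partner of the kinase TAK1, rose by 0.18 (limma adjusted p = 0.0241), a call lost without GA1, GA2, GA3, GB2 or GB3 (adjusted p 0.0512 to 0.0881). The other kinases and partners, MAP3K14, MAP3K7, TAB1, TAB3 and MAP3K8, did not pass.

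**Figure D4:**
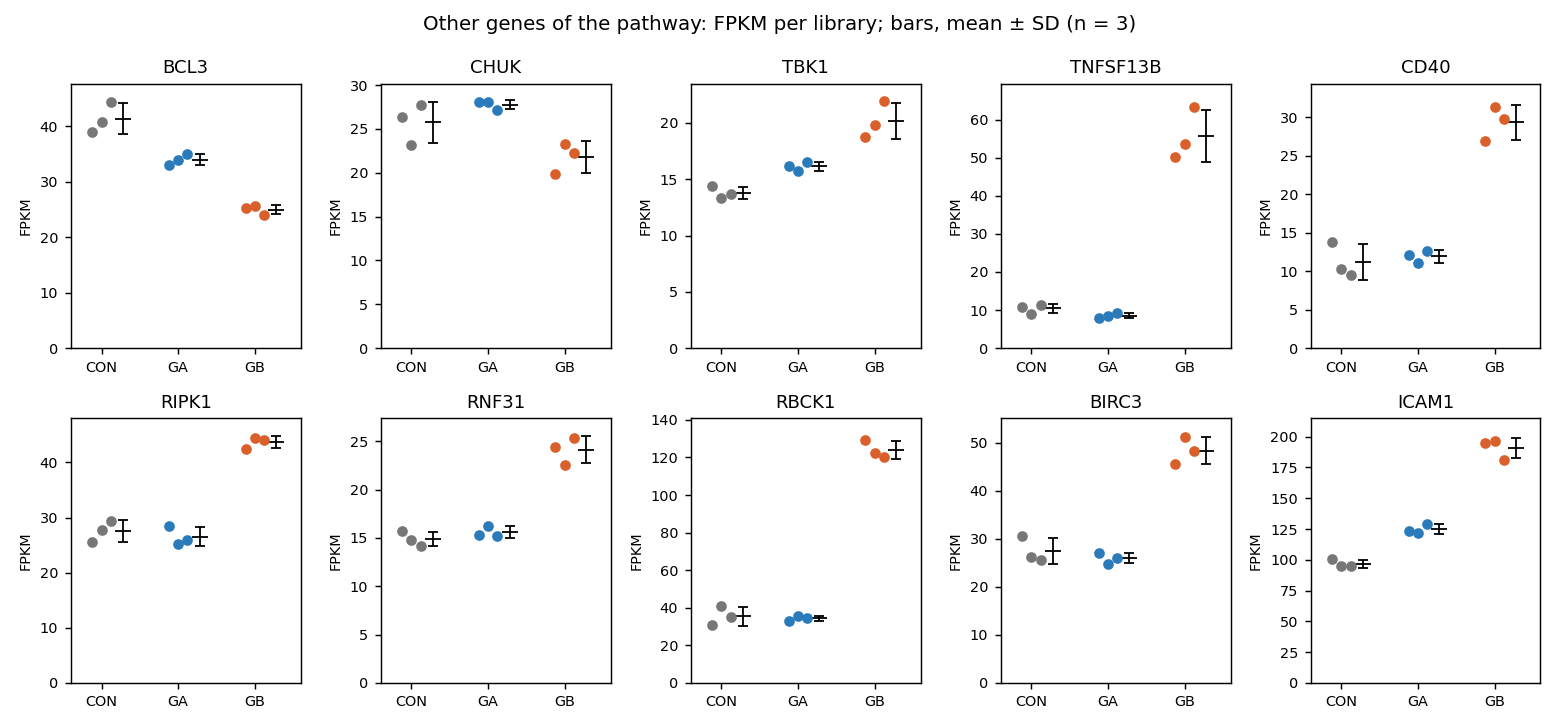
FPKM in the 9 libraries of 10 other pathway genes, 1 panel per gene with its own axis from 0, points for libraries and bars for the group mean and SD. BCL3 and CHUK were lower in all 3 GB libraries than in any GA library, and TBK1, TNFSF13B, CD40, RIPK1, RNF31, RBCK1, BIRC3 and ICAM1 were higher.

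Among the ligands that engage the pathway, 6 of 11 were in the table and 3 were tested, of which 2 rose in GB vs. GA. TNFSF13B, the B-cell survival factor BAFF, stood at 10.80, 9.08 and 11.39 FPKM in CON, 7.93, 8.52 and 9.23 in GA, and 50.08, 53.65 and 63.36 in GB. Every GB library stood above all others, and CON and GA overlapped, with a log2FC of 2.63 in GB vs. GA (limma adjusted p = 1.3e-07). TNF, IL1B, CD40LG, TNFSF11 and TNFSF14 were not among the genes of the table.

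Of 9 receptors tested, 1 rose and 3 fell, with a median log2FC of −0.002. CD40, the receptor through which T cells activate antigen-presenting cells, was at 13.78, 10.24 and 9.44 FPKM in CON, 12.07, 11.03 and 12.59 in GA, and 26.86, 31.31 and 29.75 in GB. GB was above both other groups, which overlapped, and the log2FC was 1.26 in GB vs. GA (limma adjusted p = 9.8e-05). TNFSF13B and CD40 are also used by immune cells, and 5 of 8 immune markers were in the table, 3 of them at 1 FPKM or more. Their sum ranged over 25.23 to 27.66 FPKM (CON), 26.60 to 29.26 (GA) and 30.19 to 35.89 (GB). Of the 3 tested, the macrophage receptor CD163 rose (1.89 ± 0.0557 FPKM in GA and 9.23 ± 0.172 in GB, n = 3). The other 2, CD14 (21.4 ± 1.17 in GA and 19.0 ± 3.67 in GB) and CD68 (4.12 ± 0.0777 and 3.81 ± 0.625), had lower means in GB and did not pass. PTPRC, CD3E and MS4A1 were not among the genes of the table. Of 5 endothelial markers, 1 averaged 1 FPKM or more (CDH5, log2FC 0.68 in GB vs. GA, limma adjusted p = 0.0395), and their sum ranged over 1.68 to 2.45 FPKM (CON), 1.57 to 1.79 (GA) and 2.27 to 3.44 (GB). The part of such cells in these results was not tested. The count of receptors that fell was 1 without GA3, GB1 or GB2, and the count that rose was 2 without GA3. With median-of-ratios factors 2 rose and 1 fell.

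Of 16 receptor-proximal adaptors and ubiquitin ligases, 5 rose and 2 fell in GB vs. GA. The largest rise of the list was in RBCK1, which encodes HOIL-1, a subunit of the linear ubiquitin chain assembly complex LUBAC that marks NEMO and RIPK1. It measured 30.59, 40.73 and 34.95 FPKM in CON, 32.90, 35.60 and 34.43 in GA, and 129.14, 122.32 and 119.97 in GB. Its log2FC was 1.84 in GB vs. GA (limma adjusted p = 4.9e-07). The next genes were chosen after their values were seen. RNF31, the catalytic subunit of LUBAC, rose by 0.61 on the log2 scale (limma adjusted p = 0.000155), while SHARPIN, its other subunit, had a log2FC of 0.02 (0.895). RIPK1, the kinase at the TNF receptor, rose by 0.71 (6.1e-05), and BIRC3, the ubiquitin ligase cIAP2, by 0.88 (3.3e-05). The 2 falls, also named after their values were seen, were RIPK2 and TRAF3, and their count was 0 with median-of-ratios factors and without GA1, GA3 or GB1, and 1 without GA2, GB2 or GB3.

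Of 18 deubiquitinases and other negative regulators, 3 rose and 5 fell. USP18, which removes ISG15 from proteins and blocks the interferon receptor, ranged over 2.51 to 3.71 FPKM (CON), 4.07 to 4.53 (GA) and 546.90 to 584.01 (GB), with a log2FC of 6.88 in GB vs. GA (limma adjusted p = 1.8e-10). N4BP1, an inhibitor of NF-κB signalling, was at 9.94, 7.91 and 9.59 FPKM in CON, 10.25, 8.32 and 8.91 in GA, and 24.42, 23.10 and 25.77 in GB. Its groups CON and GA overlapped and GB was above both, with a log2FC of 1.37 in GB vs. GA (limma adjusted p = 1.2e-05). The falls, named after their values were seen, were of OTULIN, TNIP1, ITCH, RNF11 and PDLIM2, with log2FC between −0.29 and −0.19, and their count was 3 without GA1 or GA2, 2 without GA3 or GB2 and 1 without GB1. With median-of-ratios factors 5 of the list rose and 2 fell.

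Textbook NF-κB target genes were mixed, with 6 of 22 higher and 3 lower in GB vs. GA and a median log2FC of 0.18. The chemokine gene CXCL10, itself interferon-inducible, was at 2.51, 1.29 and 4.96 FPKM in CON, 0, 0 and 4.13 in GA, and 7.04, 5.65 and 10.83 in GB (limma adjusted p = 0.0217 in GB vs. GA). The monocyte chemoattractant CCL2 was at 10.82, 12.59 and 7.93 in CON, 16.29, 15.89 and 8.70 in GA, and 19.96, 44.34 and 24.67 in GB (log2FC 1.06, limma adjusted p = 0.0343). The cytokine IL6 was at 0.26, 0.53 and 0 in CON, 0.77, 0 and 0.52 in GA, and 1.47, 1.45 and 1.79 in GB (limma adjusted p = 0.0349). All GB libraries were above all others for the 3 genes, but IL6 and the GA values of CXCL10 were near the lower limit of the table. CXCL10 lost its call without GA1, GA2, GB1 or GB3 (adjusted p 0.0544 to 0.0760), CCL2 without GA3, GB2 or GB3 (0.0584 to 0.115) and IL6 without GA2, GA3, GB1, GB2 or GB3 (0.0598 to 0.0973). CCL2 also lost it with no filter, no variance trend or only the 2 groups compared (limma adjusted p 0.0526 to 0.0579). IL6 also lost it with a pseudocount of 0.1, the replicate block, or GC content and the block (0.0589 to 0.105).

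Other targets, chosen after their values were seen, held their calls in GB vs. GA under all 21 alternatives. ICAM1, the leukocyte adhesion molecule, was at 100.54, 94.68 and 94.67 FPKM in CON, 123.45, 121.95 and 129.29 in GA, and 195.04, 196.45 and 181.06 in GB. The 3 groups stood apart in the order CON, GA, GB, with a log2FC of 0.61 in GB vs. GA (limma adjusted p = 1.7e-05). In the opposite direction, the early response gene IER3 fell by 0.79 on the log2 scale (limma adjusted p = 0.000688) and the cyclin gene CCND1 by 0.44 (9.9e-06). The count of targets that rose was 3 without GA2, GA3 or GB2 and 2 without GB3.

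**Figure D5:**
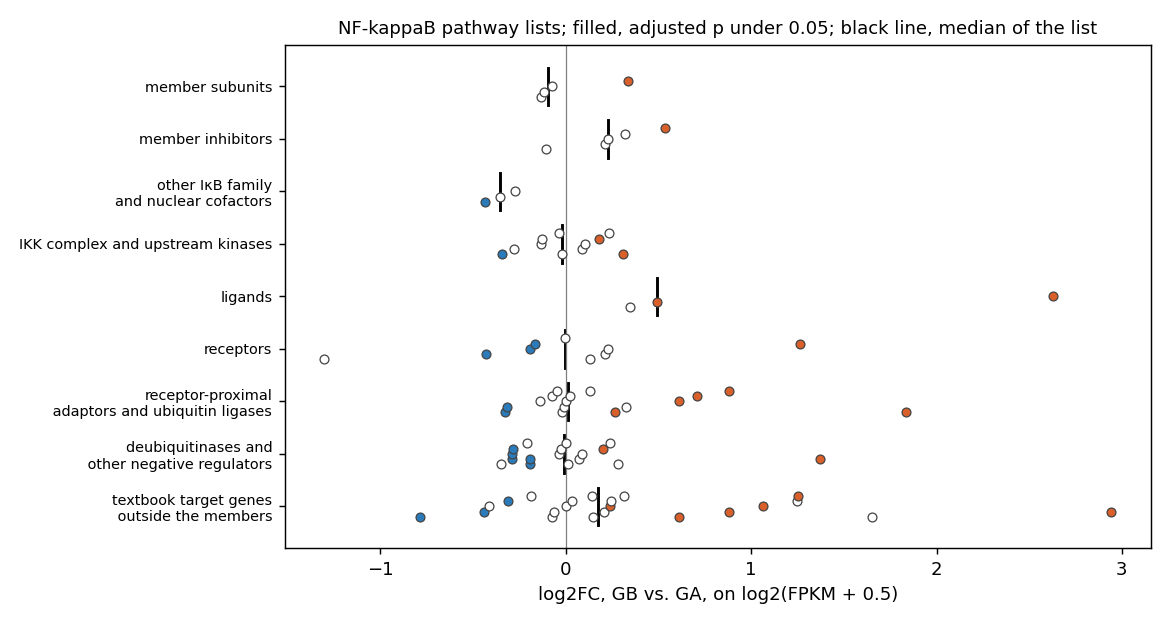
log2FC in GB vs. GA of the tested genes of each pathway list, 1 point per gene, filled where the adjusted p was under 0.05, with a black line at the median of the list. USP18, at 6.88, lies beyond the axis and is not drawn. The lists of kinases, receptors, adaptors, negative regulators and targets have filled points on both sides of 0.

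In GB vs. CON the same lists had 0 higher and 1 lower of 3 other IκB-like genes, 2 and 0 of 11 kinases, 2 and 0 of 3 ligands, 1 and 1 of 9 receptors, 8 and 0 of 16 adaptors and ligases, 5 and 3 of 18 negative regulators, and 5 and 3 of 22 targets, beside 16.2% higher and 17.3% lower of all genes. With GC content as a covariate the higher counts were 0 kinases, 4 adaptors, 2 negative regulators and 2 targets, and with the replicate block too they were 0, 1, 2 and 1. The lower counts were then 1 kinase, 0 adaptors, 2 negative regulators and 4 targets, and 0, 0, 0 and 1. The counts of ligands, receptors and other IκB-like genes were the same with GC content and became, with the block too, 1 ligand higher and 0 receptors or IκB-like genes in either direction. The adaptors that were higher numbered 6 or more with any library left out. The counts of 0 lower became 1 for the kinases without CON2 or GB2 and 1 for the adaptors without CON3, GB2 or GB3, and the 1 lower receptor became 2 without CON2. The negative regulators that were higher numbered 3 without CON2, CON3, GB2 or GB3. The lists overlap, since BIRC3 and TRAF1 count among both adaptors and targets.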

How the data were processed

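RNA of 9 libraries, 3 each of CON, GA and GB, was measured, and groups were taken from the sample labels. The authors trimmed reads with fastp 0.21.0, removed rRNA with Bowtie2 2.33, aligned to ARS-UCD1.2 with HISAT2 2.2.1 and counted with RSEM 1.3.3. The authors deposited FPKM per gene and library, to 2 decimals. The annotation release and strand setting of the counting were not given in the sources used. Low values lay near whole multiples of a gene's lowest value above 0 more often than evenly spread values would. Of 1205 values of 720 genes, 54.0% were within 0.1 of a whole multiple, against 20% for evenly spread values. Read counts were not recovered from the FPKM, and no count test was run. The authors' test was DESeq2 1.34.0 on read counts.

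Values were analysed as log2(FPKM + 0.5) in R 4.3.3 with limma 3.58.1 (a mean per group over all 9 libraries, eBayes with trend, Benjamini-Hochberg adjustment over 12578 genes). The 4584 genes with a mean under 0.5 FPKM were left out. On this scale the log2FC of low genes comes out too small. The procedure was tested on simulated data. Figures were drawn with matplotlib 3.10.9. The named genes are all members, the other IκB-like genes and the IKK complex, the DEGs of each list (at most 4), the passing gene of largest change where a list had none, and those said to be chosen after their values were seen. The members and lists were chosen with earlier results of these data known. Alternatives were pseudocounts of 1 and 0.1, a filter at 1 FPKM or none, 3 other scalings, no variance trend, a fit of the 2 groups alone, a replicate block, GC content of the reads as a covariate with and without the block, and each library left out; the list counts under these were added after seeing the data.

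Gene order is from RefSeq (ARS-UCD2.0), which differs from the build of the files, so no coordinates are given.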

Additional observations from a re-analysis of the deposited data

How the results depend on the processing

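Each of the 9 tested members was refitted under 21 alternatives. In GB vs. GA, 172 of 189 values kept their direction and side of the threshold, 4 lost the call, 12 gained it and 1 turned (NFKB2, 0.00094 with median-of-ratios factors). In GB vs. CON the counts were 156 kept, 29 lost, 1 gained and 3 turned, and in GA vs. CON, where no member passed, 173 kept and 16 turned. The members higher in GB vs. GA, 2 as reported, numbered 4 after rescaling to the same sum, median-of-ratios or quantile scaling and 1 to 4 with a library left out. The members lower in GB vs. CON, 3 as reported, numbered 1 to 3 with a library left out. With GC content as a covariate, alone or with the replicate block, 0 members were higher and 0 lower in GB vs. CON in limma (in either direction, 2 members with GC content and 0 with GC content and the block had an unadjusted p under 0.05). The cause of these changes was not tested.

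Across all genes, GB vs. CON had 4212 genes past the threshold, 1472 with GC content and 514 with GC content and the block, and its DEGs went from 504 to 328 with both. GA vs. CON had 57 genes past it, 34 without the filter, 100 with median-of-ratios factors, 13 without the variance trend, 21 with only the 2 groups compared, 0 with GC content with or without the block, and 7 to 79 with a library left out. Its 9 DEGs became 2 at a mean FPKM of at least 1, 5 with the replicate block, 0 with GC content with or without the block, and 3 to 14 with a library left out.

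In GA vs. CON the log2FC turned for NFKB1 with a library left out (−0.078 to 0.0041), NFKB2 with GC content and the block (0.040), NFKBIA with GC content (−0.12) and with the block too (−0.49), NFKBIZ with GC content (−0.034), and TNFAIP3 with GC content (0.17), with the block too (0.069), and with a library left out (−0.11 to 0.13). NFKBIE turned with the same sum (−0.011), median-of-ratios factors (−0.037), quantile normalization (−0.042), GC content (−0.15), GC content and the block (−0.25), and with a library left out (−0.039 to 0.056). In GB vs. CON it turned for NFKBIB with GC content (−0.12) and with the block too (−0.069), and with both for NFKBIA (−0.31), IRAK3 (−0.031) and TOLLIP (0.044). TANK turned there with GC content (−0.084) and with both (−0.17). In GB vs. GA, IKBKB turned with median-of-ratios factors (0.035) and, with a library left out, ranged over −0.090 to 0.0074, IKBKE over −0.019 to 0.24 and SHARPIN over −0.067 to 0.12.

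Same-numbered libraries of different groups deviated together no more than r = 0.0772. With 3 libraries a group this cannot show whether same-numbered libraries shared an animal, dish or day. The main fit used no pairing. The replicate block alone left 2 members higher and 0 lower in GB vs. GA, and in GB vs. CON ended the call of RELA (adjusted p = 0.0741 in limma). TNFAIP3 in GB vs. GA had an adjusted p of 0.0539 with GC content and the block. REL lies at the lower limit of the table, where a change would not have been detectable.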
